A study of Homo sapiens with 3 samples.

Results

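Mucins are large, heavily O-glycosylated proteins that cover the intestinal epithelium. The levels of 9 mucin genes and of FCGBP, whose product is bound into the mucus, were followed across single cells of a co-culture of 2 human colorectal cancer lines, Caco-2 and HT29. The 10 genes (MUC1, MUC2, MUC3A, MUC4, MUC5AC, MUC5B, MUC12, MUC13, MUC17 and FCGBP) were taken by symbol from the 33538 genes of the count matrices. All 10 were found and all 10 passed the filter on low counts in every comparison.

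Caco-2 and HT29 cells were seeded at 9 parts to 1 in the apical chambers of 3 Transwells and harvested on day 23. Both control wells received no LPS. The third well received 1 ng/ml of LPS, a cell-wall component of Gram-negative bacteria, here from Escherichia coli O111:B4, from day 22 for 24 h. Each well gave 1 library made with the 10x Genomics 3′ assay, in which every captured transcript carries a unique molecular identifier (UMI), so the LPS arm had 1 library and no replicate. Both lines are tumour lines, and no bacteria, immune cells or stroma were part of the culture.

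Gel-forming mucins are secreted by goblet cells and polymerize into the mucus gel. MUC2 forms the gel of the healthy intestine, whereas MUC5AC and MUC5B are best known from the stomach and the airways. FCGBP is a goblet cell product that is secreted with MUC2. The other members (MUC1, MUC3A, MUC4, MUC12, MUC13 and MUC17) span the plasma membrane, and several of them build the glycocalyx on the microvilli of enterocytes. HT29 cells are the usual source of mucus in such co-cultures and Caco-2 cells the usual source of enterocyte-like cells.

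On GRCh38, the gel-forming genes MUC2 (chr11:1074875-1110511), MUC5AC (chr11:1157953-1201138) and MUC5B (chr11:1223066-1262172) lay on the plus strand within 187 kb. The membrane mucin genes MUC3A (chr7:100949534-100968347), MUC12 (chr7:100969565-101018939) and MUC17 (chr7:101020072-101058859) followed each other on the plus strand within 109 kb, with 1217 and 1132 bases between them and no other coding gene there. MUC1 (chr1:155185824-155192916), MUC13 (chr3:124905442-124953819), MUC4 (chr3:195746765-195811973) and FCGBP (chr19:39863323-39934626) were on the minus strand. MUC12, MUC5B and MUC3A are each overlapped by an antisense gene that the matrices also list. Their counts could be shared with it only where strand was not used in counting. MUC1 is overlapped on its own strand by another listed gene, which had 0 UMIs in the kept cells. Whether transcripts of the shared stretch were left out of both counts was not tested.

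The 250 bases upstream of the RefSeq start are shown for the pair of genes that were most concentrated in goblet-like cells (MUC2 and FCGBP) and for the 3 adjacent membrane mucins, whose levels differed between the lines in different directions. All are 5′ to 3′ on the strand of the gene (GRCh38.p14): MUC2 chr11:1074624-1074873, plus; FCGBP chr19:39934635-39934884, minus; MUC3A chr7:100949284-100949533, plus; MUC12 chr7:100969315-100969564, plus; MUC17 chr7:101019831-101020080, plus. Capitals mark matches, on either strand, to any of 6 motifs. They are the TATA box, searched as TATAAA, the GC box bound by SP1, searched as GGGCGG, and the motif of the GATA factors, searched as AGATAA. The motif of the CDX homeobox factors was searched as TTTATNG, the core of hypoxia response elements as ACGTG, and a partial NF-κB site as GGGNNTT.
MUC2: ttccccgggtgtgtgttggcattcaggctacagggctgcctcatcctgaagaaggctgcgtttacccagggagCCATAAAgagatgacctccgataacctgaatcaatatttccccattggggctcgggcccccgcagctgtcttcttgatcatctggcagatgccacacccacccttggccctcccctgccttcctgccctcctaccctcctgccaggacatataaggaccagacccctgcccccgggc
FCGBP: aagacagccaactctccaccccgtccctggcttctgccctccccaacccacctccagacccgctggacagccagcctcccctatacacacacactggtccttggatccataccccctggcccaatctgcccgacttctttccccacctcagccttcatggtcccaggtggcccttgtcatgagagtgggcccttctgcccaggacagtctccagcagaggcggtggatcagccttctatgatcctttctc
MUC3A: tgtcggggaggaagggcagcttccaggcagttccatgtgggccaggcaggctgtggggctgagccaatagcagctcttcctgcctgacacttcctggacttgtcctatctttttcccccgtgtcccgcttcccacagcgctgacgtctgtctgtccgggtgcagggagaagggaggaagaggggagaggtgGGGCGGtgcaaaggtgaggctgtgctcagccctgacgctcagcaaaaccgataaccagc
MUC12: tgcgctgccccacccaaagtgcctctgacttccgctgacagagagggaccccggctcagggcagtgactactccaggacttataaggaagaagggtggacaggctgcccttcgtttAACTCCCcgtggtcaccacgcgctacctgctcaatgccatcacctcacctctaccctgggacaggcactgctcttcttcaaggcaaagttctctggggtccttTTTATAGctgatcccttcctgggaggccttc
MUC17: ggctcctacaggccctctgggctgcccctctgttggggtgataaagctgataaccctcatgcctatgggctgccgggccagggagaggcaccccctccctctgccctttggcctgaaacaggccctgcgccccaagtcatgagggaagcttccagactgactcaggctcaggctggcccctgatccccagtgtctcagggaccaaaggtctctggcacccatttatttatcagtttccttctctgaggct

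A window was found for 8 of the 10 members, and not for MUC5AC and MUC5B. The MUC2 window held 1 CDX match, 177 bases before the start. The MUC12 window held overlapping TATA and CDX matches beginning 31 bases before the start and a partial NF-κB site at 134 bases. The letters TATAAA of that match were on the strand opposite the gene. The MUC3A window held 1 GC box, and the windows of MUC17 and FCGBP held none of the letters searched for the 6 motifs. Only AGATAA was searched for the GATA factors, so other forms, such as TGATAA in the MUC17 window, were not counted. MUC1, which is not shown, had a TATA match and 4 GC box matches, some of which overlap. Among all 27305 windows of this length, 9.29% held the CDX motif, 11.1% the TATA box, 42.3% the GC box, 41.1% the partial NF-κB site, 9.37% the GATA motif and 18.7% the hypoxia core. An E-box (CANNTG), left in lower case, occurred in 62.2% of all windows and 3 times in that of MUC2. These letter matches are descriptions and not binding sites.

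Control 1 held 5811 barcodes with 33893707 UMIs, control 2 held 6495 with 27934953, and the LPS library 6838 with 24185467. After the filters on UMIs, genes and mitochondrial share, and after removal of the 6% of cells with the highest doublet scores, 4633, 4989 and 4850 cells were kept, with median UMIs of 5452, 4101 and 3572.5. Pairs of libraries had 9 to 11 barcodes in common, none of them with identical counts. Each cell was given to a line by the study's monoculture lists of HT29 and Caco-2 genes, with the 10 members left out, using 116 HT29 and 87 Caco-2 genes. In control 1, control 2 and the LPS library, 13.6%, 19.1% and 16.4% of cells were HT29-line, and 148, 216 and 158 cells had no clear line. Levels are given as CPM, a gene's UMIs divided by all UMIs of the same cells and scaled to 1000000. Values are compared within a gene and not between genes.

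All 10 members differed between HT29-line and Caco-2-line cells, 7 higher and 3 lower in HT29-line cells. The line test was edgeR's quasi-likelihood test on UMIs summed per line and library, with the library as a block and Benjamini-Hochberg adjustment over 14006 genes. It called 73.2% of all genes, 34.8% higher and 38.4% lower in HT29-line cells, so a call alone does not set the mucins apart from other genes, and their size and direction are given for each. The p-values rest on 3 wells, of which 1 was treated.

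The gel-forming mucins and FCGBP had the largest log2 fold changes between the lines, an order that MUC2 and FCGBP lost without the secretory cluster described below. MUC5AC was at 79.8 CPM in HT29-line cells of control 1, 98.6 in control 2 and 132 in the LPS library, against 1.78, 1.72 and 2.26 CPM in Caco-2-line cells. The lines did not overlap, and the log2 fold change was 5.65 ± 0.13 (SE, adjusted p = 7.14e-23, edgeR). MUC5B, the second airway-type gel former, was at 11.2, 21.9 and 18.5 CPM in HT29-line cells and at 0.323, 0.209 and 0.245 CPM in Caco-2-line cells, where it rested on 8, 4 and 4 UMIs. Its log2 fold change was 5.84 ± 0.30 (SE, adjusted p = 1.06e-15, edgeR).

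MUC2, the intestinal gel former, was at 37.7, 21.4 and 23.9 CPM in HT29-line cells and at 0.364, 0.939 and 2.57 CPM in Caco-2-line cells. FCGBP was at 175, 175 and 106 CPM in HT29-line cells and at 4.08, 1.46 and 11.4 CPM in Caco-2-line cells. For both, the LPS library had the highest value among Caco-2-line cells, while the lines did not overlap in any library. The log2 fold changes were 4.51 ± 0.31 (SE, adjusted p = 5.24e-13, edgeR) for MUC2 and 4.83 ± 0.29 (SE, adjusted p = 5.12e-14, edgeR) for FCGBP. Both sizes moved with the cells included. Without the secretory cluster they were 2.08 and 2.81, below the size of the MUC17, MUC1 and MUC13 differences (-3.50, 3.38 and 3.14). With stricter line cuts they were 6.81 and 7.50. Those cuts kept 1717 of 3853, 2020 of 3820 and 1657 of 3898 Caco-2-line cells in control 1, control 2 and the LPS library. Of HT29-line cells they kept 529 of 632, 705 of 953 and 588 of 794. Why the sizes moved was not tested. Leaving out the LPS library gave 5.49 and 5.91, leaving out control 1 gave 3.69 and 4.54, and leaving out control 2 gave 4.55 and 4.23, all past the threshold.

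The membrane mucins divided between the lines. MUC13, a membrane mucin of the intestinal surface, was at 246, 328 and 289 CPM in HT29-line cells and at 33.3, 29.5 and 35.5 CPM in Caco-2-line cells (log2 fold change 3.06 ± 0.10 SE, adjusted p = 1.55e-19, edgeR). With the stricter line cuts its log2 fold change was 3.90, and those of MUC5AC and MUC5B were 6.37 and 7.22. MUC1, found on many epithelia, was at 13.9, 7.63 and 12.1 CPM against 0.889, 0.886 and 1.59 CPM (3.28 ± 0.26 SE, adjusted p = 1.71e-11, edgeR). Both were higher in HT29-line cells of every library.

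In the cluster on chromosome 7, MUC12 was higher and its neighbours on either side were lower in HT29-line cells. MUC17, a mucin of the enterocyte brush border, was at 1.83, 2.03 and 2.23 CPM in HT29-line cells and at 25.8, 18.4 and 23.9 CPM in Caco-2-line cells (log2 fold change -3.54 ± 0.22 SE, adjusted p = 9.10e-14, edgeR). MUC3A was at 8.37, 7.12 and 7.95 CPM against 13.2, 12.4 and 15.7 CPM (-0.87 ± 0.17 SE, adjusted p = 7.18e-05, edgeR). MUC12 had the opposite direction, at 25.1, 14.7 and 20.7 CPM against 9.66, 5.68 and 6.18 CPM (1.42 ± 0.15 SE, adjusted p = 6.35e-09, edgeR). The MUC3A difference was not past the threshold with the stricter line cuts, at -0.30 (adjusted p = 0.216, edgeR).

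MUC4, a membrane mucin that can bind ERBB2, had the fewest UMIs of all members, 91 over the kept cells. It was at 0.523, 0.254 and 0.318 CPM in HT29-line cells, from 2, 1 and 1 UMIs, and at 1.66, 1.30 and 1.22 CPM in Caco-2-line cells, from 41, 25 and 20 UMIs. Its log2 fold change was -1.97 ± 0.63 (SE, adjusted p = 0.00643, edgeR), and DESeq2 gave -2.03 with an adjusted p of 0.0955.

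**Figure D1:**
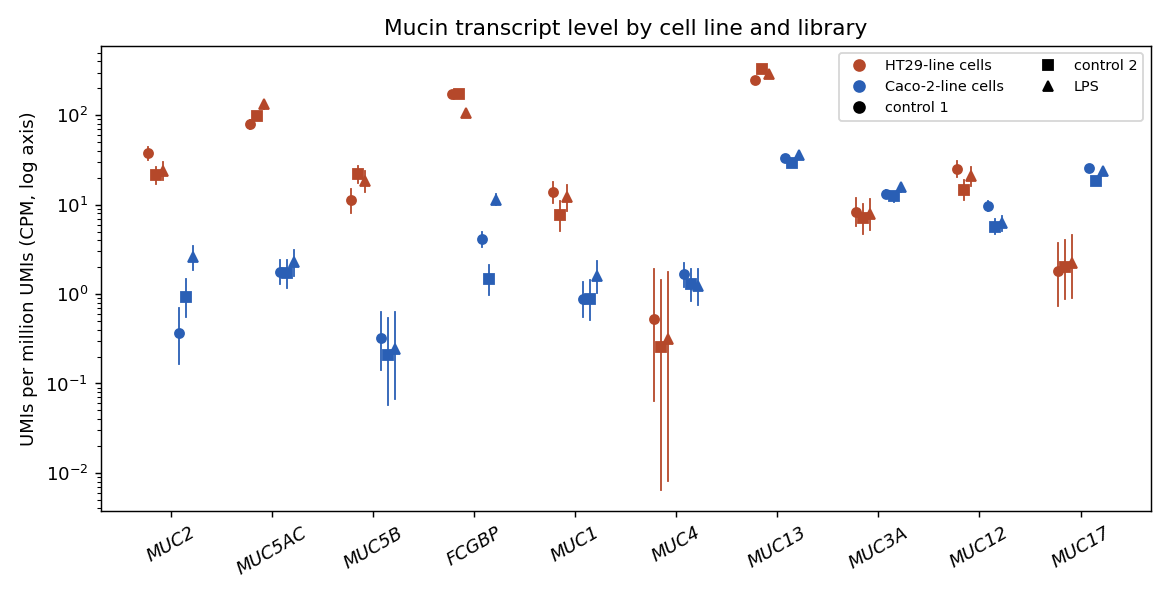
Mucin transcript level (CPM, log axis) in HT29-line and Caco-2-line cells, with 1 point per library (shape) and bars for the exact Poisson interval, which covers counting error only. MUC5AC, MUC5B, MUC2 and FCGBP differ most in favour of HT29-line cells, and MUC17 in favour of Caco-2-line cells, while MUC3A lies close together.

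For MUC13, MUC5AC and MUC17, shares of cells with a UMI differed between the lines in the same direction as the levels. The order of the libraries could differ between shares and levels. In control 1, control 2 and the LPS library, MUC13 was found in 46.2%, 43.9% and 42.9% of HT29-line cells and in 13.5%, 10.2% and 10.4% of Caco-2-line cells. Cells were also thinned to the UMI minimum of control 1 and shallower cells left out, which kept 632 of 632, 822 of 953 and 626 of 794 HT29-line cells and 3853 of 3853, 3517 of 3820 and 3348 of 3898 Caco-2-line cells. The thinned shares were 28.3%, 33.5% and 33.4% against 6.07%, 5.29% and 6.45%. MUC5AC was found in 16.6%, 15.4% and 21.9% of HT29-line cells (8.07%, 10.9% and 16.8% thinned). In Caco-2-line cells, taken here as the background share of this gene, it was found in 0.831%, 0.785% and 0.744%. MUC17 was found in 12.6%, 7.49% and 7.54% of Caco-2-line cells (5.24%, 4.21% and 4.75% thinned) and in 1.11%, 0.630% and 0.882% of HT29-line cells. FCGBP was found in 6.65%, 6.19% and 5.04% of HT29-line cells, MUC5B in 4.43%, 6.09% and 5.16%, and MUC2 in 3.96%, 2.52% and 1.76%. The gel-forming mucins were therefore seen in a minority of HT29-line cells at this depth. The median UMIs of HT29-line cells were 5283, 3684 and 3484.5, and those of Caco-2-line cells 5456, 4185 and 3565.

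To place the mucins within the lines, cells of the 3 libraries were clustered together with the members left out of the clustering genes and of the markers. Clusters were made from the same cells, so the levels that follow are descriptions with no test. A cluster of 231 secretory cells split into goblet-like cells of 115 cells, led by KLK12, HES6, GUCA2B, SPDEF and TFF3, a second goblet-like cluster of 57 cells and an enteroendocrine-like cluster of 59 cells. The first held 0.691%, 0.862% and 0.825% of the cells of control 1, control 2 and the LPS library, and 104 of its cells were HT29-line. The second was led by PRSS2, HES6 and KLK12. It had 11 raised goblet markers, but none of the goblet markers was among its leading genes. The paper describes secretory progenitor-like cells high in HES6, and no such class was among the names used here.

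MUC2 was at 614 CPM in the goblet-like cluster in control 1, 448 in control 2 and 704 in the LPS library, with a mean of 589 ± 130 (SD, n = 3). The next level among clusters with at least 20 cells in all libraries was 9.90 ± 9.61 CPM (SD, n = 3), in an unnamed cluster in which 159 of 318 cells had no clear line. FCGBP was at 2145, 3806 and 3003 CPM in the goblet-like cluster (mean 2985 ± 831, SD, n = 3), followed by 70.8 ± 42.0 CPM in the same unnamed cluster. MUC5AC was at 645, 832 and 1133 CPM in the goblet-like cluster and at 52.2, 66.6 and 80.1 CPM in the undifferentiated HT29-like cluster. For these 3 genes the goblet-like cluster was above every other cluster measured in all libraries. The second goblet-like cluster had 15, 24 and 18 cells in the libraries, under the minimum for a level in all but control 2, and its libraries differed widely. From these few cells MUC2 was at 104, 0 and 64.8 CPM, MUC5AC at 52.0, 393 and 243 CPM and FCGBP at 429, 763 and 97.2 CPM.

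The share of a gene's UMIs that the goblet-like cells held differed among the secreted members. The 115 cells held 73.1% of all MUC2 UMIs and 64.1% of those of FCGBP, but 31.2% of those of MUC5AC and 9.96% of those of MUC5B. The undifferentiated HT29-like cluster of 2304 cells held 52.8% of the MUC5AC UMIs and 74.9% of the MUC5B UMIs. There MUC5B was at 10.2, 20.8 and 14.8 CPM, against 20.5, 46.6 and 73.7 CPM in the goblet-like cluster, from 4, 8 and 11 UMIs. The goblet-like value was higher in each of the 3 libraries. In the controls the exact Poisson intervals overlapped, at 5.58 to 52.4 against 7.34 to 13.9 CPM in control 1 and 20.1 to 91.7 against 16.5 to 25.8 CPM in control 2.

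Among clusters with at least 20 cells in all libraries, MUC13 was highest in the undifferentiated HT29-like cluster of 2304 cells, at 242, 336 and 283 CPM, and this cluster held 59.1% of its UMIs. The goblet-like cluster (101 ± 25.0 CPM, SD, n = 3) and the enterocyte-like cluster (97.0 ± 13.4 CPM, SD, n = 3) came next and did not differ beyond their spread. MUC1 was likewise highest there, at 10.8 ± 2.55 CPM (SD, n = 3), with 62.6% of its UMIs. A second cluster named undifferentiated HT29-like, led by NEAT1, had 50 cells and only control 2 with enough of them. Its median of 1943.5 UMIs was the lowest of all clusters, and none of the undifferentiated HT29 markers was among its leading genes. Its pooled levels were 289 CPM for MUC13, from 32 UMIs, and 36.1 CPM for MUC1, from 4 UMIs. MUC12 was at 26.7 ± 9.15 CPM in the goblet-like, 20.5 ± 5.26 in the undifferentiated HT29-like and 16.6 ± 4.21 in the enterocyte-like cluster (SD, n = 3 each). Over libraries these ranges overlapped, while the order was the same within each of the 3 libraries. The goblet-like MUC12 levels rested on 7, 3 and 4 UMIs, and their exact Poisson intervals covered the levels of both other clusters in every library.

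MUC17 and MUC3A were highest in the enterocyte-like cluster of 2051 cells, led by APOA4, S100G and SLC2A5. MUC17 was there at 79.3, 64.8 and 96.3 CPM, followed by 37.2 ± 8.95 CPM (SD, n = 3) in an unnamed cluster led by ITGA5 and SLC2A3. The goblet-like cluster held no MUC17 UMI, and the upper ends of its exact Poisson intervals were 18.9, 21.5 and 24.7 CPM. These lie above the 2.65 ± 0.395 CPM (SD, n = 3) of the larger undifferentiated HT29-like cluster, so the absence does not set the 2 clusters apart. MUC3A was at 28.9, 34.5 and 43.2 CPM in the enterocyte-like cluster, and the unnamed clusters that came next, at 17.8 ± 4.99 and 15.2 ± 2.35 CPM (SD, n = 3 each), did not differ beyond their spread. The enterocyte-like cluster held 56.6% of the MUC17 UMIs and 37.1% of the MUC3A UMIs. Of the MUC4 UMIs, 52.7% were in the stem-like cluster of 2865 cells, at 4.65, 3.41 and 1.24 CPM.

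**Figure D2:**
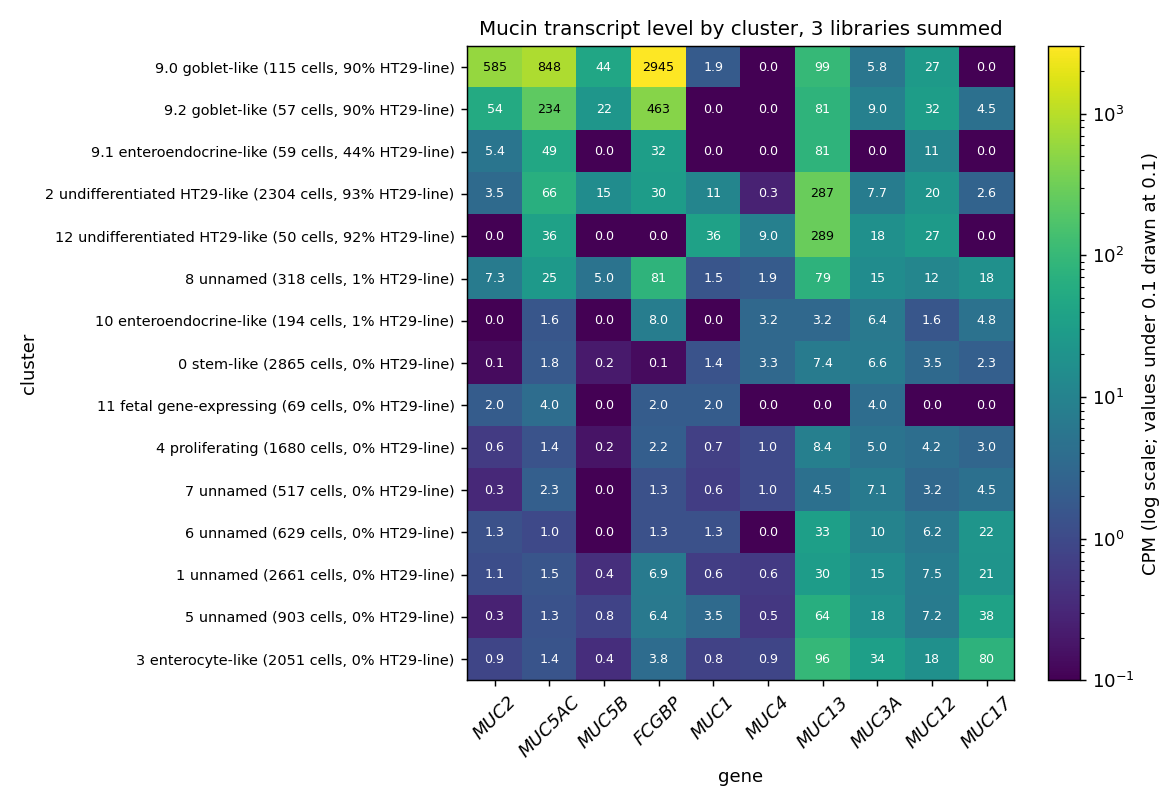
Heat map of transcript level (CPM, colour on a log scale) for each member (columns) in each cluster (rows, with the number of cells and the percentage of HT29-line cells), UMIs of the 3 libraries summed. MUC2, FCGBP and MUC5AC peak in the goblet-like cluster of 115 cells, and MUC17 and MUC3A in the enterocyte-like cluster. MUC13 and MUC1 are highest in the HT29-like clusters, where the cluster of 50 cells rests on 32 MUC13 and 4 MUC1 UMIs.

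The UMIs of several members came from few cells. In control 1, control 2 and the LPS library, the 1% of cells with the most UMIs of a gene held 100%, 99.2% and 100% of the MUC2 UMIs and 94.1%, 94.1% and 95.7% of the FCGBP UMIs. Among membrane mucins, it held 83.1%, 100% and 76.5% of the MUC1 UMIs and 100% of the MUC4 UMIs in each library. The same share of cells held 70.8%, 63.5% and 56.1% of the MUC5AC UMIs, 25.7%, 26.7% and 24.6% of those of MUC13 and 19.5%, 30.7% and 30.9% of those of MUC17. The fewest cells that held 50% of a gene's UMIs numbered 6, 7 and 3 for MUC2, 6, 10 and 7 for FCGBP, and 160, 159 and 162 for MUC13. A level of MUC2 or FCGBP in a library thus rested on few cells, and 1 cell of control 1 held 137 FCGBP UMIs. For genes found in under 1% of cells the measure reaches its ceiling whatever the spread among those cells, and just above 1% it stays high. MUC1, found in 1.27%, 0.802% and 1.32% of cells, had 77, 50 and 68 UMIs in 59, 40 and 64 cells. MUC4 had 44, 26 and 21 UMIs in 38, 25 and 20 cells. MUC2, found in 0.755%, 1.02% and 0.680% of cells, was at or near this ceiling too. Its share in the top 1% thus says nothing of the spread among its cells. It had 156, 121 and 136 UMIs in 35, 51 and 33 cells, and FCGBP had 782, 989 and 603 in 92, 92 and 74 cells. The high shares of MUC1 and MUC4 thus came with few UMIs per cell, unlike those of MUC2 and FCGBP.

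**Figure D3:**
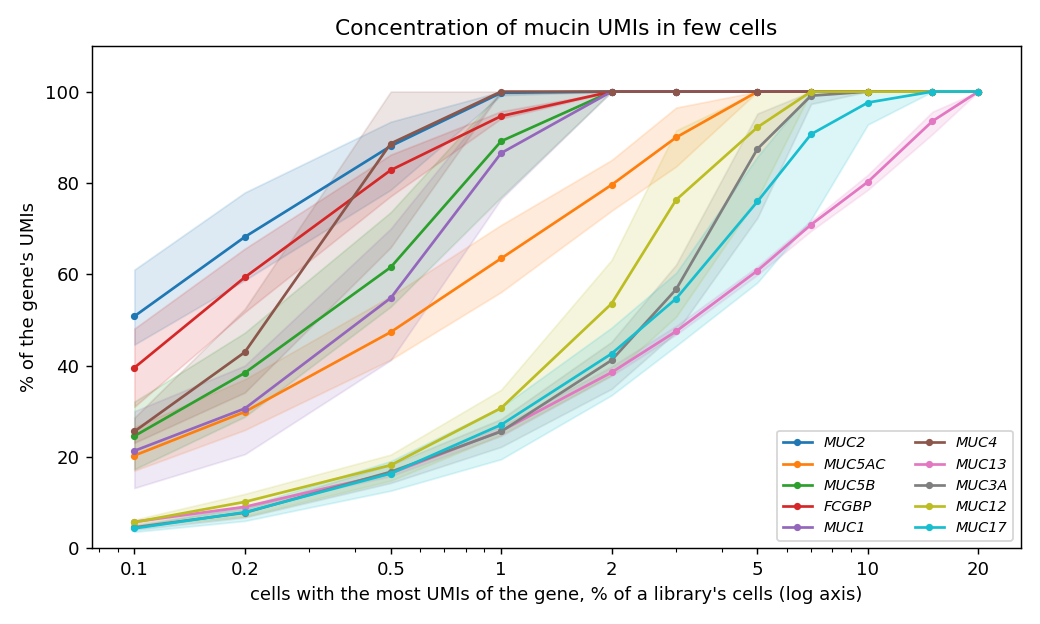
Percentage of a gene's UMIs (vertical axis) held by the cells with the most of them (horizontal axis, percentage of a library's cells, log axis), with a line for the mean of the 3 libraries and shading from the lowest to the highest of them. At 1% of the cells, MUC2 is at 99.2% to 100% and FCGBP at 94.1% to 95.7%, whereas MUC13 and MUC17 are at 19.5% to 30.9%. MUC2 was found in only 0.680% to 1.02% of cells, so its value there is at or near the ceiling of the measure.

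Secreted members were found in the same cells more often than the product of their shares gives. Among 2080 HT29-line cells thinned in the same way, 33 held both MUC2 and FCGBP where 2.23 would follow from the shares within libraries, 61 held MUC5AC and FCGBP (12.9), 23 held MUC2 and MUC5AC (4.75) and 23 held MUC5AC and MUC5B (8.56). Among 10718 thinned Caco-2-line cells, the brush border mucins went together, with 93 cells for MUC13 and MUC17 (30.4), 34 for MUC3A and MUC17 (14.5) and 24 for MUC12 and MUC17 (8.67). These counts describe cells of the same libraries and carry no test.

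Within the 172 goblet-like cells of both clusters, MUC2 was found in 60, MUC5AC in 96 and FCGBP in 111. In the first cluster of 115 cells these counts were 55, 79 and 93, and in the second of 57 cells they were 5, 17 and 18. MUC2 and MUC5AC were together in 40 cells of the first cluster, against 37.8 from their shares, and in 3 cells of the second, against 1.49. Over both clusters, 20 cells had 5 or more MUC2 UMIs, 30 had 5 or more MUC5AC UMIs, and 6 had both. FCGBP was found in 19 of those 20 cells and in 28 of those 30. None of the 3 genes was seen in 7 of the 115 cells of the first cluster and in 29 of the 57 cells of the second. Because members were left out of the clustering, these cells were placed by other genes.

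**Figure D4:**
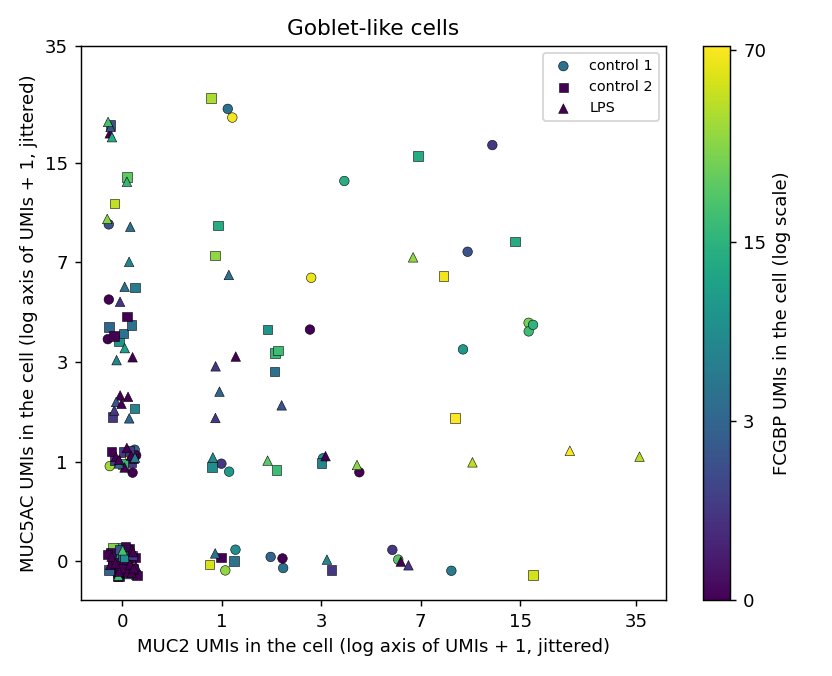
MUC2 UMIs (horizontal) and MUC5AC UMIs (vertical, both log axes of UMIs + 1, jittered) in each of the 172 goblet-like cells, with shape for the library and colour for FCGBP UMIs. Of the 20 cells with 5 or more MUC2 UMIs and the 30 with 5 or more MUC5AC UMIs, 6 lie high on both axes.

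Genes with the most similar pattern were sought for each member with at least 100 UMIs, by Pearson's r of log2(CPM + 10) over 39 profiles of 15 clusters by library, which share libraries and depth, among 11184 genes. For MUC5AC these were SPDEF, a transcription factor of secretory cells (r = 0.957), RAP1GAP (0.937) and GNA15 (0.923). For MUC2 they were LINC02489 (0.970), KLK15 (0.903) and AC011523.1 (0.892), for FCGBP RASD2 (0.948), FER1L6 (0.925) and SPDEF (0.892), and for MUC5B SDR16C5 (0.936), MUC5AC (0.919) and SPDEF (0.897). SPDEF thus stood among the 3 nearest genes for 3 of the 4 secreted members. SPDEF and RASD2 were also among the leading genes of the first goblet-like cluster. Because the profiles are clusters, such genes correlate with members that are high in that cluster, and their r is no separate evidence. Genes were compared if they reached 20 CPM in at least 1 profile, so a gene could enter through the few profiles where it was high. The highest level in any profile was 34.9 CPM for LINC02489, 23.3 for KLK15, 20.5 for AC011523.1, 23.3 for FER1L6 and 26.8 for SDR16C5. These levels are not far above that minimum, and such an r can rest on few profiles.

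The membrane mucins had other nearest genes. For MUC17 they were SLC26A3, a chloride-bicarbonate exchanger of enterocytes (r = 0.946), AQP10, a water and glycerol channel (0.946), and MS4A10 (0.924). For MUC3A they were GDPD2 (0.868), its chromosomal neighbour MUC17 (0.855) and MEP1A, a brush border metalloprotease (0.851). MUC12 was nearest to MUC13 (0.845), ZFP36 (0.819) and SELENOS (0.810), MUC13 to ACADVL (0.878), MYH14 (0.877) and AC005550.2 (0.871), and MUC1 to IGFL4 (0.835), BTBD16 (0.816) and CLEC3A (0.798). The highest levels of IGFL4, BTBD16, CLEC3A and GDPD2 in any profile were 24.5, 26.0, 37.2 and 29.7 CPM, also not far above the minimum. MUC4, with 91 UMIs, was not compared.

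Other genes of mucus and its making were compared between the lines by lists, without any gene of the study's monoculture lists of HT29 and Caco-2 genes. The counts below stand beside 73.2% of all tested genes called, 34.8% higher and 38.4% lower in HT29-line cells. The shares over all genes include the genes of the monoculture lists, which the counts leave out. A count near those shares does not set a list apart from other genes. Of 8 other mucins tested, 7 were higher and 0 lower in HT29-line cells, with a median log2 fold change of 3.08 beside -0.06 over all genes. MUC16, a membrane mucin of wet surfaces, was at 25.1, 24.1 and 25.5 CPM in HT29-line and at 0.323, 0.417 and 0.306 CPM in Caco-2-line cells (6.05 ± 0.24 SE, adjusted p = 5.01e-18, edgeR). MUC21 (5.96), MUC15 (4.61) and MUCL3 (3.98) had the same direction.

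Of 10 enzymes that begin O-glycosylation by adding GalNAc, 5 were higher and 3 lower in HT29-line cells (median 0.35). GALNT14 had the largest difference, at no more than 0.122 CPM in Caco-2-line cells and at least 10.9 CPM in HT29-line cells of any library (7.14 ± 0.36 SE, adjusted p = 9.71e-16, edgeR), beside GALNT8 (3.94), GALNT7 (1.73) and GALNT16 (-2.52). Of 10 enzymes that build and extend the glycan cores, 6 were higher and 3 lower (median 0.57). FUT3, the Lewis fucosyltransferase (4.65), B4GALNT3 (2.18) and C1GALT1, the core 1 synthase (1.37), were higher and GCNT1, a core 2 enzyme, was lower (-2.69).

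Of 15 genes of mucus assembly and goblet secretion, 10 were higher and 3 lower in HT29-line cells (median 0.68). ERN2, the endoplasmic reticulum stress sensor of goblet cells, was higher (5.62). ZG16, a goblet cell lectin, was lower, at 3.14, 6.86 and 5.09 CPM against 121, 117 and 104 CPM (-4.57 ± 0.16 SE, adjusted p = 3.70e-19, edgeR), as was the trefoil peptide TFF2 (-2.73). Genes of this list were thus called in both directions, as were genes over the whole test.

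Of 13 secretory and intestinal transcription factors, 8 were higher and 5 lower (median 0.43). SPDEF was at 67.5, 63.6 and 71.3 CPM in HT29-line and at 0.768, 0.991 and 1.47 CPM in Caco-2-line cells (5.94 ± 0.16 SE, adjusted p = 1.45e-21, edgeR). The intestinal homeobox factors went in opposite directions, with CDX1 higher (5.43) and CDX2 lower (-3.65) in HT29-line cells, and SOX2 was lower (-3.67). Of 7 genes for anchoring or shedding membrane mucins, 1 was higher (ADAM17, 0.35) and 3 were lower (MEP1A, -3.47; the scaffold PDZK1, -2.06; EGFR, -0.43), with a median of -0.10. Of 11 genes of LPS recognition and NF-κB targets, 5 were higher and 4 lower (median 0.16), CXCL8 (6.04), the LPS co-receptor CD14 (2.41), CXCL1 (2.34) and BIRC3 (1.82) among the former.

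None of the 10 members passed the threshold between the LPS library and the controls. An unadjusted p under 0.05 was reached by 1 member of 10 over whole libraries (MUC5AC; 715 of all genes), 2 in HT29-line cells (MUC5AC and FCGBP; 559), 2 in Caco-2-line cells and 2 for the difference between the lines (MUC2 and FCGBP; 490 and 351). The edgeR test called 9 of 16142 genes, 0.0558%, over whole libraries, 5 of 15070 genes, 0.0332%, in HT29-line cells and 1 gene, 0.00664%, in Caco-2-line cells. The 5 were the interferon-induced genes IFI44L, IFIT2, IFIT3 and MX1 together with PLA2G2A, and the 1 was SST, all named after their values were seen. The difference between the lines' responses was called for 0% of 15070 genes and by DESeq2 for 0 genes. None of the genes on the 7 lists was called in these comparisons. The lone LPS library was assumed to vary as the controls do, and treatment and well cannot be told apart.

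Over whole libraries MUC5AC was at 13.4 and 20.4 CPM in the controls and at 24.9 CPM with LPS, and in HT29-line cells at 79.8 and 98.6 against 132 CPM. The LPS library was the highest in both, with log2 fold changes of 0.49 ± 0.20 (SE, adjusted p = 0.944, edgeR) and 0.50 ± 0.18 (SE, adjusted p = 1.00, edgeR). The interval of 2 SE around the latter ran from 0.14 to 0.86. MUC2 was at 37.7 and 21.4 against 23.9 CPM in HT29-line cells, between the controls (-0.37 ± 0.36 SE). FCGBP was at 175 in both controls and 106 CPM with LPS (-0.78 ± 0.30 SE, adjusted p = 1.00, edgeR), and at 2145 and 3806 against 3003 CPM in the goblet-like cluster, where the LPS value lay between the controls. Without the secretory cluster the HT29-line FCGBP difference was -2.72 ± 0.69 (SE, adjusted p = 0.614, edgeR). That setting kept 1 HT29-line cell of control 1 with 137 FCGBP UMIs. The undifferentiated HT29-like cluster of 2304 cells held 225, 88 and 31 FCGBP UMIs in control 1, control 2 and the LPS library. The share of its cells with FCGBP was 1.96%, 1.88% and 2.15%, with no fall in the LPS library. The difference without the cell of 137 UMIs was not tested.

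In Caco-2-line cells, FCGBP was at 4.08 and 1.46 CPM in the controls and at 11.4 CPM with LPS (1.89 ± 0.35 SE, adjusted p = 0.410, edgeR), and MUC2 at 0.364 and 0.939 against 2.57 CPM (1.95 ± 0.51 SE, adjusted p = 0.996, edgeR). The LPS library was highest for both, from few cells. Of the FCGBP UMIs, 101, 28 and 186 in the libraries, 54, 19 and 154 came from 5 cells each, and without those cells the levels were 1.90, 0.470 and 1.96 CPM. Of the MUC2 UMIs, 9, 18 and 42, the top 5 cells held 6, 9 and 36, and without them the levels were 0.121, 0.471 and 0.368 CPM. Those FCGBP cells had median HT29-line fractions of 0.188, 0.191 and 0.238, against 0.107, 0.0965 and 0.109 over all Caco-2-line cells, and their median doublet scores were 0.110, 0.0893 and 0.149 against 0.0641, 0.0666 and 0.0752. The part of mixed barcodes in these values was not tested. With the stricter line cuts, the FCGBP difference was -1.60 ± 1.65 (SE).

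The test of the difference between the lines gave -2.67 ± 0.46 (SE, adjusted p = 0.305, edgeR) for FCGBP and -2.31 ± 0.62 (SE, adjusted p = 1.000, edgeR) for MUC2. Neither passed the threshold over all genes, and FCGBP turned to 0.94 with the stricter line cuts. For the other members over whole libraries, the intervals of 2 SE ran from -0.27 to 0.34 for MUC13, from -0.19 to 0.49 for MUC3A, from -0.42 to 0.42 for MUC17, from -0.74 to 0.33 for MUC12, from -0.20 to 1.08 for MUC1, from -0.59 to 1.02 for MUC5B and from -1.32 to 0.54 for MUC4. A change of 2-fold, 1 on the log2 scale, lay outside these whole-library intervals for MUC13, MUC3A, MUC17 and MUC12 in either direction. Within the lines it lay inside for MUC12 in Caco-2-line cells (-1.10 to 0.26) and MUC17 in HT29-line cells (-1.31 to 1.60). The SE holds no spread among LPS wells, so a change of this size is not excluded.

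**Figure D5:**
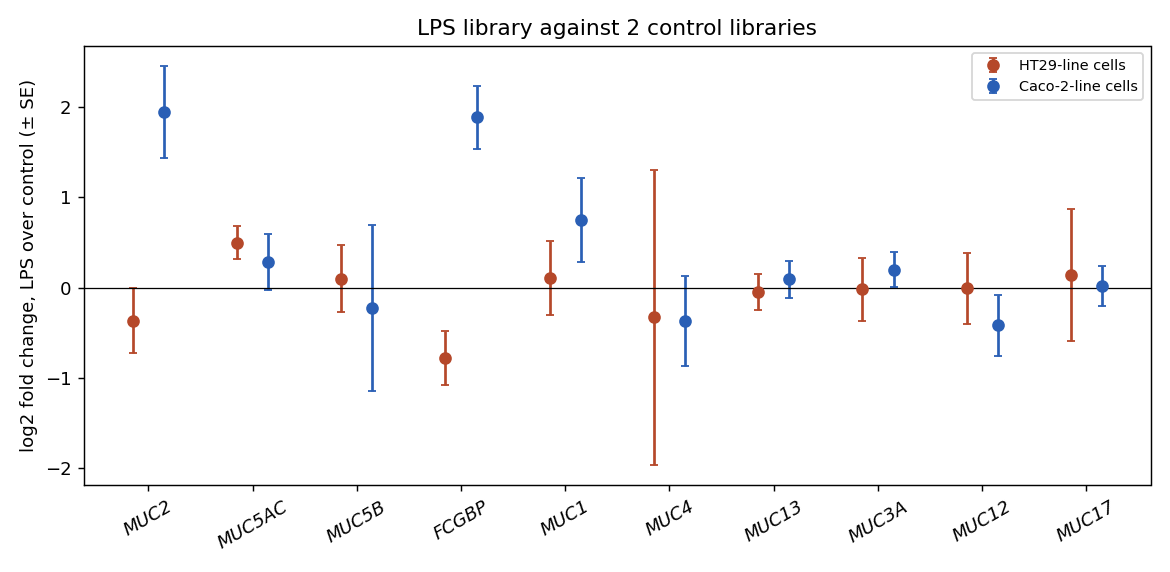
Log2 fold change of the LPS library over the 2 control libraries for each member, in HT29-line cells (red) and Caco-2-line cells (blue), with bars of ± SE from edgeR. MUC2 and FCGBP lie at 1.95 and 1.89 in Caco-2-line cells and below 0 in HT29-line cells, and no member passed the threshold in either line.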

How the data were processed

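Raw UMI counts per gene and barcode, deposited by the authors without normalization and made with Cell Ranger on GRCh38, were used for 2 control libraries and 1 LPS library. Cells were kept at 2250 UMIs and 770 genes in control 1, and at 1500 UMIs and 700 genes in the others, with at most 20% mitochondrial UMIs. The study gives no minimum for the LPS library, so that of control 2 was taken. The 6% of cells with the highest Scrublet scores were removed per library, since the automatic threshold marked 1 cell in all. A cell was HT29-line at a line fraction of 0.7 or more and Caco-2-line at 0.3 or less. Clusters came from SCTransform (sctransform 0.4.2), anchor integration in Seurat 5.3.0, 50 components, 15 neighbours and Leiden resolution 0.5. A cluster name needed 3 raised markers.

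Summed counts were tested with edgeR 4.0.16 (R 4.3.3; quasi-likelihood, TMM, filterByExpr, adjusted p threshold 0.05), and DESeq2 1.42.0 was an alternative. The line test was blocked by library, as both lines shared a well. The scripts were tested on simulated data. Intervals for single libraries are exact at 95% and cover counting error only. Coordinates are from GENCODE on GRCh38. All members were named, with the 3 nearest genes of each and up to 4 called genes with the largest change per list. An item that this rule would name is not reported here. The members, lists and tests were chosen with earlier results of these data known.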

Additional observations from a re-analysis of the deposited data

Results flagged for a closer look

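FCGBP was found among barcodes that failed the filters on UMIs, genes or mitochondrial share, which no comparison used. In the LPS library its level there was 15.3 CPM (exact 95% Poisson interval 10.1 to 22.3, from 27 UMIs in 1678 barcodes). In control 1 it was 3.83 CPM (1.04 to 9.81, from 4 UMIs in 882 barcodes) and in control 2 it was 2.54 CPM (0.524 to 7.42, from 3 UMIs in 1188 barcodes). These intervals cover counting error only and not the spread between wells, so no difference of the LPS library is shown. The minimums differed between control 1 and the others, so the left-out barcodes are not of one kind. The part of free RNA in this level was not tested.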

How the results depend on the processing

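No paired analysis of LPS against control was possible, because the LPS group had 1 library and the labels give no pairing of wells. In the line comparison both lines of a well were paired by library, and with no library block all 10 members stayed past the threshold. DESeq2 called 9 of 10 (not MUC4), and the stricter line cuts (0.9 and 0.1) called 8 of the 9 members they left to test (not MUC3A). All members kept their direction in every alternative of the line comparison in which they were tested, and MUC4 had too few UMIs for the test under the stricter cuts and after thinning. Levels in the goblet-like cells depended on the extent of the cluster: the whole secretory cluster gave 341 CPM for MUC2, 540 for MUC5AC and 1764 for FCGBP, and its split at 0.4, chosen after seeing the data, gave 585, 848 and 2945. Thinning to equal depth lowered the mean share of HT29-line cells with a UMI to 11.9% for MUC5AC and 31.7% for MUC13, and that of Caco-2-line cells to 4.73% for MUC17.

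The number of genes called in the LPS comparisons moved with the settings. Over whole libraries 9 became 18 with DESeq2's size factors, 49 with no filter on low counts and 14 with the minimums of control 1 in all libraries. In HT29-line cells 5 became 37 with no filter, 2 with no doublets removed, 9 with the stricter cuts and 8 without the mixed-line cluster. In Caco-2-line cells 1 became 31 with no filter (2 of them members, MUC2 and FCGBP), 2 without the mixed-line cluster (1 of them FCGBP), and 0 with DESeq2, no doublets removed, the minimums of control 1, the stricter cuts or no secretory cluster. The difference between the lines went from 0 to 9 with no filter (2 members, MUC2 and FCGBP) and to 2 without the mixed-line cluster (1 member, FCGBP). The settings without the secretory or the mixed-line cluster were chosen after seeing the data, and the causes were not tested.

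Some log2 differences of members that were not called changed sign. Over whole libraries MUC2 was -0.15 without the secretory cluster. In HT29-line cells MUC17 was -0.08 with no doublets removed; MUC1 -0.09, MUC3A 0.06, MUC4 0.33 and MUC12 0.10 with the minimums of control 1; MUC5B -0.14, MUC12 0.16 and MUC17 -0.09 with the stricter cuts; and MUC5B -0.11 and MUC12 0.01 without the secretory cluster. In Caco-2-line cells MUC17 was -0.04 with the minimums of control 1, and MUC5AC -0.91, MUC5B 2.09, MUC17 -0.12 and FCGBP -1.60 with the stricter cuts. For the difference between the lines MUC17 was -0.13 with no doublets removed, and MUC5B -2.23 and FCGBP 0.94 with the stricter cuts. Leaving out 1 control left no test. Over whole libraries this changed the sign of MUC5B (-0.29 to 0.88), MUC12 (-0.56 to 0.23), MUC13 (-0.12 to 0.17) and FCGBP (-0.52 to 0.05), and MUC17 ran from -0.28 to 0.32. In HT29-line cells it did so for MUC1 (-0.27 to 0.57), MUC2 (-0.73 to 0.10), MUC3A (-0.15 to 0.09), MUC4 (-0.34 to 0.09), MUC5B (-0.30 to 0.61), MUC12 (-0.35 to 0.41) and MUC13 (-0.24 to 0.15). In Caco-2-line cells it did so for MUC5B (-0.39 to 0.11), MUC12 (-0.76 to 0.05), MUC13 (-0.03 to 0.20) and MUC17 (-0.23 to 0.31), and FCGBP ran from 1.33 to 2.81 and MUC2 from 1.30 to 2.41. For the difference between the lines, MUC5B (-0.41 to 1.00), MUC13 (-0.44 to 0.18) and MUC17 (-0.26 to 0.39) changed sign. Members with under about 100 UMIs in a line, such as MUC4 and MUC5B, and those held by few cells, such as MUC2 and FCGBP, limit what 1 LPS library can show.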

Other observations

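Barcodes removed for high doublet scores also held FCGBP, at 34.4 CPM in control 1 (296 barcodes), 43.4 CPM in control 2 (318 barcodes) and 27.7 CPM in the LPS library (310 barcodes). In cells with no clear line, MUC5AC was at 37.3, 60.3 and 63.4 CPM and FCGBP at 8.05, 210 and 95.6 CPM in control 1, control 2 and the LPS library. These values lay between those of the lines, except FCGBP in control 2, which was above that of HT29-line cells. The unnamed cluster in which 159 of 318 cells had no clear line made up 1.68%, 3.97% and 0.866% of cells.

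MUC6, the gastric gel-forming gene on the same chromosome as MUC2, had 2 UMIs over all kept cells, both in Caco-2-line cells. MUC20, another membrane mucin, had 494 UMIs and lay at 6.54, 5.34 and 5.73 CPM in HT29-line and 5.58, 7.09 and 8.08 CPM in Caco-2-line cells.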
